A study of Mus musculus with 12 samples.

Results

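The matrix metalloproteinases, their tissue inhibitors and the related ADAM proteases were followed as 9 genes, *Mmp9*, *Mmp12*, *Mmp13*, *Mmp14*, *Timp1*, *Timp2*, *Timp3*, *Adam8* and *Adam17*, picked by symbol out of 55487 genes counted. The RNA came, by the source labels, from BV2, a mouse microglial cell line that was immortalised and grows in culture, and 3 libraries were sequenced in each of 4 groups. The groups were high glucose with CD200Fc (HG+CD200Fc), high glucose alone (HG), normal glucose with CD200Fc (NG+CD200Fc) and normal glucose alone (NG), and CD200Fc was given at 50 ng/mL. CD200Fc joins the ligand CD200 to an antibody Fc part and engages CD200R1, an inhibitory receptor of myeloid cells. How much glucose was used and for how long is not stated in the sources, and the design has neither an Fc control nor an osmotic one. The source label names BV2, whereas the treatment protocol in the same labels tells of retinas dissected from perfused mice and a sort for GFP-positive viable cells, and the source label was followed. Separate cultures are stated for no group, and the p-values may therefore reflect technical spread among libraries alone.

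Matrix metalloproteinases are zinc enzymes made with a propeptide that blocks the active site until it is cut or displaced, and together they degrade most proteins of the extracellular matrix and the basement membrane. The tissue inhibitors of metalloproteinases (TIMPs) occupy the active site with their N-terminal end, and the balance between enzyme and inhibitor limits proteolysis. ADAMs use the same kind of catalytic site at the cell surface, where they release the outer part of cytokines and receptors. In microglia and macrophages *Mmp9* and *Mmp12* are known as secreted enzymes of the activated state, and ADAM17 is the enzyme that releases TNF.

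The catalytic stretch shared by the enzymes is printed because it is the feature that unites 6 of the 9 genes. Capitals mark the codons of the zinc-binding histidines and of the catalytic glutamate, in the reading frame of the GENCODE M21 coding sequence (GRCm38), written 5′ to 3′.
Mmp9: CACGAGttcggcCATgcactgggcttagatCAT
Mmp12: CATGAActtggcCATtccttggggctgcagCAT
Mmp13: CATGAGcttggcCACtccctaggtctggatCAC
Mmp14: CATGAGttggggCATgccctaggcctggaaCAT
Adam8: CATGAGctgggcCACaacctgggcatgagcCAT
Adam17: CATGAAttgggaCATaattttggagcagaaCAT
The stretch starts at codon 401 of 730 in *Mmp9*, codon 222 of 473 in *Mmp12*, codon 329 of 826 in *Adam8* and codon 424 of 846 in *Adam17*. Over its 33 bases *Mmp9* and *Mmp12*, the 2 secreted enzymes among the 9 genes that were detected above trace levels, were identical at 21. The number was 19 between *Adam8* and *Adam17*, and it ran from 17 (*Mmp13* with *Adam17*) to 25 (*Mmp9* with *Mmp14*, among other pairs) over all pairs.

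For the inhibitors, the codons that begin the mature protein are shown, with the cysteine codons of the end that enters the active site in capitals.
Timp1: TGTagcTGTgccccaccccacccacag
Timp2: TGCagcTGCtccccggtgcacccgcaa
Timp3: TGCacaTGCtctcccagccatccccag
These stretches begin at codon 25 of 205 in *Timp1*, codon 27 of 220 in *Timp2* and codon 24 of 211 in *Timp3*.

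Matrix metalloproteinase promoters are known for AP-1 sites close to the start of transcription, and the 2 members with such a match are shown because 1 of them was well expressed here and the other was near zero. RefSeq (GRCm38.p6) gave a start for all members but *Mmp9*. The AP-1 motif TGANTCA was searched on both strands of the 250 bases before each start, as were TATAAA and motifs of NF-kB, PU.1 and Ets factors. Capitals mark the AP-1 match and, in *Mmp13*, the letters TATAAA.
Mmp12, plus strand, chr9:7347124-7347373: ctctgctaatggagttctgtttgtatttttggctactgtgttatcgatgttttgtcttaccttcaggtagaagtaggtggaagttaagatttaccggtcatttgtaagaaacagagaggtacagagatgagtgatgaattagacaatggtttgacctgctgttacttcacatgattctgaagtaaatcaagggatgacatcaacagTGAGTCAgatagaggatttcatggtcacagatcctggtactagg
Mmp13, plus strand, chr9:7272264-7272513: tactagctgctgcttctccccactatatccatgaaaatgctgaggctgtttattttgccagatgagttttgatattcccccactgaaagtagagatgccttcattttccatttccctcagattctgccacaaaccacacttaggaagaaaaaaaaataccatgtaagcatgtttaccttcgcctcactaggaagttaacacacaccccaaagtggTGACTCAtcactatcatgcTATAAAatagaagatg
The AP-1 match lay 44 to 38 bases before the start in *Mmp12* and 35 to 29 bases before it in *Mmp13*. The letters TATAAA lay 16 to 11 bases before the *Mmp13* start. Of 32851 RefSeq windows of the same length, 6.75% held TGANTCA and 12.4% held TATAAA. RefSeq lists another *Mmp12* start farther upstream, and its window, chr9:7344147-7344396, has no AP-1 match. On its minus strand that window holds an NF-kB match 129 to 120 bases before the start and a PU.1 match 88 to 81 bases before it. Of all windows 7.25% held the NF-kB motif and 2.44% the PU.1 motif. A match is a run of letters and shows no binding.

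Total counts ran from 2.15e+07 to 3.19e+07 per library. All 18 microglia and macrophage markers exceeded 1 CPM (counts scaled to a library of 1e+06, after TMM normalization) in some library, and their summed level was 5461 to 5692 CPM in HG+CD200Fc, 5852 to 6763 CPM in HG, 5795 to 6055 CPM in NG+CD200Fc and 6141 to 6519 CPM in NG. The lowest of these markers were *P2ry12*, at 0.676 to 2.62 CPM per library, and *Cx3cr1*, at 0.709 to 4.22 CPM. Neutrophils are the other leukocyte rich in *Mmp9*. Of 10 neutrophil markers 8 stayed under 1 CPM everywhere, *S100a9* had no read, and the list, mostly *S100a8* at 1.36 to 4.53 CPM, summed to 3.12 to 3.63 CPM in HG+CD200Fc, 2.39 to 3.29 CPM in HG, 3.02 to 4.41 CPM in NG+CD200Fc and 3.41 to 5.34 CPM in NG. Among fibroblast and pericyte markers 7 of 10 stayed under 1 CPM and *Dcn* and *Lum* had no read, with sums of 8.00 to 9.90, 9.89 to 11.9, 7.10 to 8.20 and 7.37 to 9.79 CPM in the same order of groups. The photoreceptor, neuron and glia list had 7 of 14 genes under 1 CPM, and its sum of 180.3 to 198.5 CPM came mostly from *Glul* and *Pde6b*. The endothelial list summed to 468 to 530 CPM in HG+CD200Fc, 438 to 445 CPM in HG, 398 to 447 CPM in NG+CD200Fc and 401 to 417 CPM in NG, with *Cldn5* at 0.406 CPM or less. That sum was mostly *Vwf*, at 168.1 CPM in HG+CD200Fc, 236.9 CPM in HG, 154.7 CPM in NG+CD200Fc and 141.8 CPM in NG, and *Flt1*, at 300.5, 162.1, 236.9 and 239.5 CPM in the same order, and where *Vwf* was higher (HG vs NG) *Flt1* was lower, with the reverse in HG+CD200Fc vs HG. Ribosomal RNA genes took 1.49% of the counts in HG replicate 2 and at most 0.119% in any other library.

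Per exon length, the 2 membrane proteases and 1 inhibitor dominated the family. Mean RPKM (CPM per kilobase of merged exons) over the 12 libraries was 98.8 for *Adam8*, 68.3 for *Timp2* and 53.1 for *Adam17*, against 8.93 for *Mmp9* and 2.34 for *Mmp12*. The order of these 5 genes was the same in each library, because the ranges did not overlap: the lowest *Adam8* value, 78.6 RPKM, exceeded the highest *Timp2* value, 76.2 RPKM, and the lowest *Timp2* value, 63.4 RPKM, exceeded the highest *Adam17* value, 55.3 RPKM. The lowest *Mmp9* value, 5.52 RPKM, likewise exceeded the highest *Mmp12* value, 3.12 RPKM. This order depends on the merged exon lengths, such as 3896 bases for *Timp2* and 7154 for *Adam17*. In CPM, *Adam17* (349 to 395.6) lay above *Timp2* (246.9 to 297), and *Mmp9* (19.5 to 63.0) overlapped *Mmp12* (12.2 to 22.6).

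**Figure D1:**
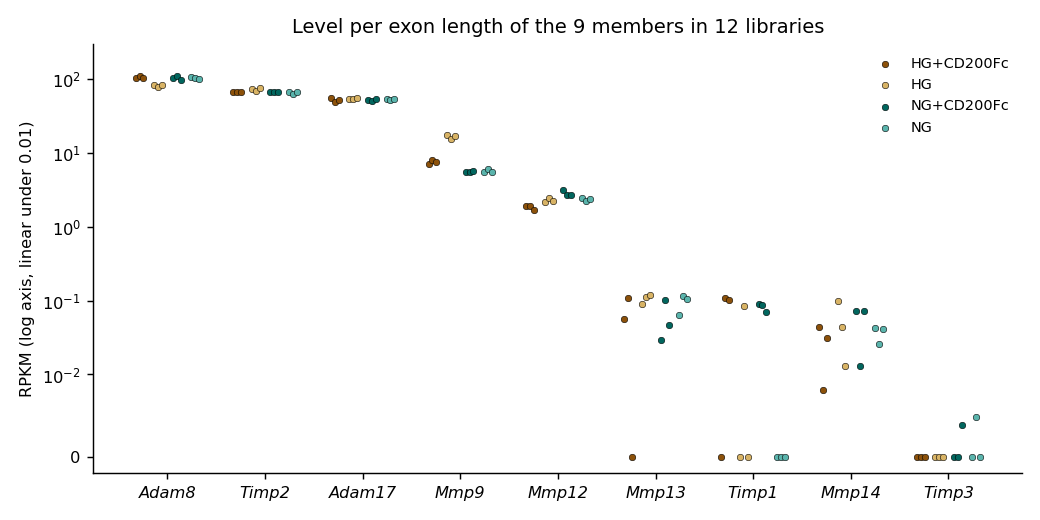
Level of each of the 9 genes in each of the 12 libraries in RPKM, on a log axis that is linear under 0.01, with 1 point per library and the groups coloured in the order HG+CD200Fc, HG, NG+CD200Fc, NG. *Adam8*, *Timp2* and *Adam17* lie between 48.8 and 109.4, *Mmp9* and *Mmp12* between 1.69 and 17.8, and the other 4 genes at or below 0.118.

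The other 4 members were at or near zero in these cells. *Mmp13* (ENSMUSG00000050578, chromosome 9, 7272514 to 7283331, plus strand), the interstitial collagenase of rodents, had 65 reads in all, with 10 reads in HG+CD200Fc, 23 in HG, 13 in NG+CD200Fc and 19 in NG. *Mmp14* (ENSMUSG00000000957, chromosome 14, 54431612 to 54445364, plus strand), the membrane-type enzyme that activates pro-MMP2 together with TIMP2, had 81 reads and between 1 and 17 per library. *Timp1* (ENSMUSG00000001131, chromosome X, 20870166 to 20874735, plus strand), the inhibitor that binds pro-MMP9, had 4 reads in HG+CD200Fc, 2 in HG, 6 in NG+CD200Fc and 0 in NG. *Timp3* (ENSMUSG00000020044, chromosome 10, 86300372 to 86349506, plus strand), the matrix-bound TIMP and the one known to inhibit ADAM17, had 1 read in NG+CD200Fc and 1 in NG and none in the 6 high glucose libraries. A count of 0 allows up to 3 reads, which is 0.0932 to 0.145 CPM in these libraries, for counting error only. *Mmp13*, *Timp1* and *Timp3* did not reach the filter on low counts and were not tested, and their differences between groups were not detectable at this depth. *Mmp14* was tested, but its 95% interval in HG against NG ran from -1.08 to 2.11 on the log2 scale, so no useful bound on a change was obtained. The filter left 6 of the 9 members.

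*Mmp9* was 2.95-fold higher in HG than in NG, and in HG+CD200Fc it stood at 0.446 of the HG level. *Mmp9* (ENSMUSG00000017737, chromosome 2, 164940780 to 164955850, plus strand) encodes gelatinase B, which cuts denatured collagens and the type IV collagen of basement membranes. Its level was 25.2, 28.4 and 26.4 CPM in the HG+CD200Fc libraries, 63.0, 55.5 and 60.5 CPM in HG, 19.8, 19.6 and 20.1 CPM in NG+CD200Fc, and 19.5, 21.5 and 19.6 CPM in NG. The HG libraries stood highest, the HG+CD200Fc libraries lay between them and both normal glucose groups without overlapping either, and the 2 normal glucose groups overlapped. Counts of 461 to 1841 reads per library lie behind these values.

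HG libraries averaged 59.7 ± 3.82 CPM and NG libraries 20.2 ± 1.10 CPM (SD, n = 3 each), a log2 fold change of 1.56 ± 0.0793 (SE) with an adjusted p of 1.24e-13 in edgeR's quasi-likelihood test with Benjamini-Hochberg adjustment. By p-value this ranked 3 among 19182 genes. With CD200Fc the same glucose step was smaller, at 26.6 ± 1.60 CPM in HG+CD200Fc and 19.8 ± 0.225 CPM in NG+CD200Fc, a log2 fold change of 0.42 ± 0.0810 (edgeR, adjusted p = 0.00284). *Mmp9* was lower in HG+CD200Fc than in HG with a log2 fold change of -1.17 ± 0.0780 (edgeR, adjusted p = 5.12e-11, rank 7). In normal glucose the change with CD200Fc was -0.03 on the log2 scale with a 95% interval from -0.20 to 0.14 (edgeR, adjusted p = 0.971). The difference between these CD200Fc effects, the interaction, was -1.14 ± 0.113 (edgeR, adjusted p = 1.92e-07). HG+CD200Fc was above NG by a log2 fold change of 0.40 ± 0.0814 (edgeR, adjusted p = 0.00107). The contrasts share libraries: HG enters both HG vs NG and the comparison of HG+CD200Fc with it, and NG enters 3 of the pairwise ones. Fewer cells of a type and less RNA per cell cannot be told apart in bulk libraries. Of the 18 microglia and macrophage markers 7 were higher and 4 lower in HG vs NG, with a median of 0.05, and 1 was higher and 9 lower in HG+CD200Fc vs HG, with a median of -0.20. Of all genes tested 11.7% passed higher and 12.9% lower in HG vs NG, with a median of 0.02. In HG+CD200Fc vs HG 9.46% passed higher and 8.3% lower, with a median of -0.02. The markers that changed in the directions of *Mmp9* in both contrasts included *Adgre1* (0.80 and -0.88 on the log2 scale), *C1qb* (1.07 and -1.34), *Aif1* (0.44 and -0.70) and *Itgam* (0.51 and -0.56), while *Cx3cr1* had the opposite directions (-1.36 and 1.52). The part of these markers, and of the neutrophil markers given above, in the *Mmp9* result was not tested. Without HG replicate 2, the library with more ribosomal RNA, the *Mmp9* change was 1.61 in HG vs NG and -1.22 in HG+CD200Fc vs HG. The authors' deposited table lists *Mmp9* at 1.57 in HG vs NG and -1.17 in HG+CD200Fc vs HG on the log2 scale.

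**Figure D2:**
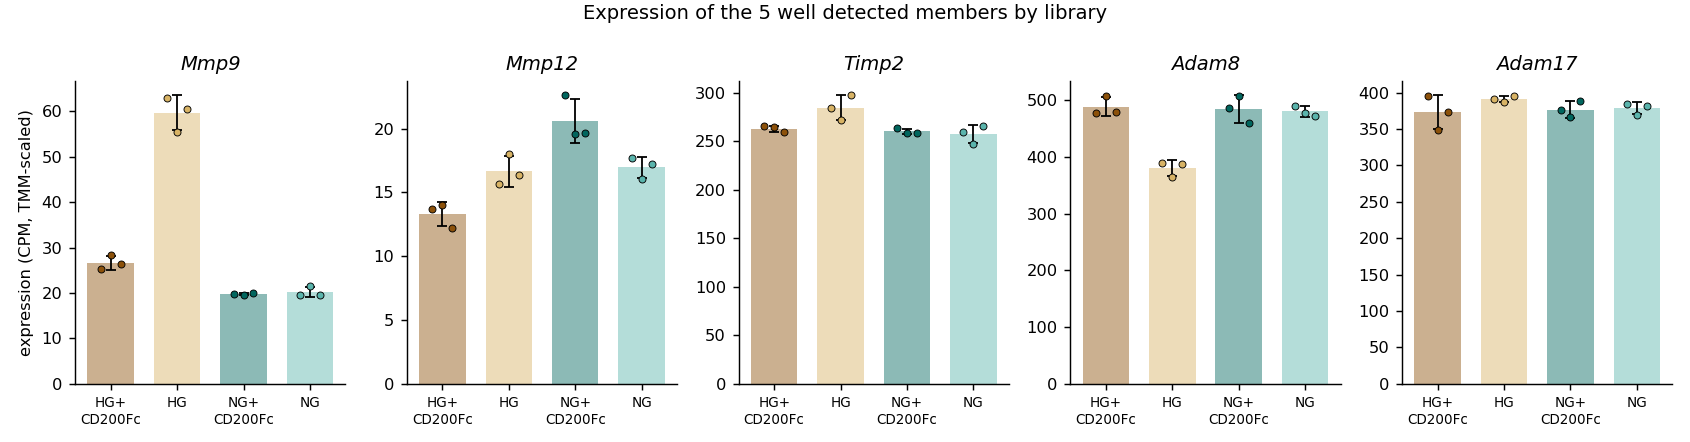
Level of the 5 well detected genes in CPM by group, in the order HG+CD200Fc, HG, NG+CD200Fc, NG, with 1 point per library, bars for the mean of 3 libraries and error bars for the SD. *Mmp9* is highest in HG at 59.7 CPM, *Adam8* is lowest in HG at 380.7 CPM, the *Mmp12* means run between 13.3 and 20.6 CPM, and the means of *Timp2* lie between 257.3 and 284.3 CPM and those of *Adam17* between 372.7 and 390.6 CPM.

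*Mmp12* followed another pattern: no difference between HG and NG was detected, and the level was lowest where high glucose and CD200Fc were combined. *Mmp12* (ENSMUSG00000049723, chromosome 9, 7344381 to 7369499, plus strand) encodes macrophage metalloelastase, an enzyme that cuts elastin. Its level was 13.7, 14.0 and 12.2 CPM in HG+CD200Fc, 15.7, 18.0 and 16.4 CPM in HG, 22.6, 19.6 and 19.7 CPM in NG+CD200Fc, and 17.7, 16.0 and 17.2 CPM in NG. The HG+CD200Fc libraries were the lowest and the NG+CD200Fc libraries the highest, each separate from the other 3 groups, while HG and NG overlapped.

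With CD200Fc present, *Mmp12* fell in high glucose, to 13.3 ± 0.949 CPM in HG+CD200Fc against 20.6 ± 1.73 CPM in NG+CD200Fc (SD, n = 3 each), a log2 fold change of -0.63 ± 0.101 (edgeR, adjusted p = 0.00129). Without it, HG at 16.7 ± 1.22 CPM and NG at 17.0 ± 0.844 CPM differed by -0.03, with a 95% interval from -0.23 to 0.18 (edgeR, adjusted p = 0.888). HG+CD200Fc was below HG with a log2 fold change of -0.32 ± 0.102 (edgeR, adjusted p = 0.0258) and below NG with a log2 fold change of -0.35 ± 0.102 (edgeR, adjusted p = 0.0159). NG+CD200Fc and NG did not overlap, but the change of 0.28 ± 0.0988 had an unadjusted p of 0.00881 and an adjusted p of 0.816 (edgeR), in a comparison where 0% of all genes tested passed. The interaction was -0.60 ± 0.142 (edgeR, adjusted p = 0.00753). The call in HG+CD200Fc vs HG was lost without HG+CD200Fc replicate 3 (-0.27, edgeR adjusted p = 0.139), without HG replicate 2 (-0.27, 0.110) or without HG replicate 3 (-0.33, 0.0565). The call against NG was lost without HG+CD200Fc replicate 3 (-0.30, edgeR adjusted p = 0.0855) or without NG replicate 1 (-0.33, 0.0666). The microglia and macrophage markers summed to 5461 to 5692 CPM in HG+CD200Fc, below the 5852 to 6763 CPM in HG, and their part in the *Mmp12* result was not tested.

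Among the TIMPs followed, *Timp2* was the one expressed enough to be tested, and its group means lay within 1.11-fold of each other. *Timp2* (ENSMUSG00000017466, chromosome 11, 118301069 to 118355740, minus strand) inhibits the soluble metalloproteinases and is the partner of MMP14 on pro-MMP2. It had 265.2, 264.1 and 259.2 CPM in HG+CD200Fc, 284.3, 271.5 and 297 CPM in HG, 263.0, 258.4 and 258.4 CPM in NG+CD200Fc, and 259.8, 246.9 and 265.2 CPM in NG. The HG libraries lay above those of every other group, and the other 3 groups overlapped. HG exceeded NG by a log2 fold change of 0.14 ± 0.0508 (edgeR, adjusted p = 0.0384). This call was lost in 14 of 20 alternatives (0.09 to 0.15 on the log2 scale, edgeR adjusted p = 0.0522 to 0.287), among them the removal of any library other than HG replicate 2, and the authors' deposited table gives 0.15 with a false discovery rate of 0.0664. The difference of HG+CD200Fc from HG was -0.11 ± 0.0509 (edgeR, adjusted p = 0.136), and that of the interaction -0.13 ± 0.0719 (edgeR, adjusted p = 0.349).

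*Adam8* moved opposite to *Mmp9*: it was lowest in HG, and in HG+CD200Fc it overlapped both normal glucose groups. *Adam8* (ENSMUSG00000025473, chromosome 7, 139978932 to 139992562, minus strand) encodes a leukocyte ADAM that activates itself and sheds adhesion receptors. Its level was 477.7, 507.5 and 479.3 CPM in HG+CD200Fc, 390, 364.5 and 387.5 CPM in HG, 486.5, 507.3 and 459.5 CPM in NG+CD200Fc, and 490.4, 477.1 and 472.8 CPM in NG. The HG libraries lay below all 9 others, which overlapped among themselves.

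*Adam8* fell by 0.33 ± 0.0515 on the log2 scale in HG against NG, with means of 380.7 ± 14.0 CPM in HG and 480.1 ± 9.16 CPM in NG (SD, n = 3 each; edgeR, adjusted p = 2.27e-05). It rose by 0.36 ± 0.0515 in HG+CD200Fc against HG (edgeR, adjusted p = 1.02e-05), with a mean of 488.2 ± 16.8 CPM in HG+CD200Fc. HG+CD200Fc and NG+CD200Fc differed by 0.01, with a 95% interval from -0.09 to 0.12 (edgeR, adjusted p = 0.924), and NG+CD200Fc and NG by 0.01 (-0.09 to 0.12, adjusted p = 0.979). The interaction was 0.35 ± 0.0727 (edgeR, adjusted p = 0.00291). The authors' deposited table lists -0.33 for HG vs NG and 0.36 for HG+CD200Fc vs HG.

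No change of *Adam17*, the sheddase of TNF and its receptors, passed the test in any contrast. *Adam17* (ENSMUSG00000052593, chromosome 12, 21323509 to 21373632, minus strand) had 395.6, 349 and 373.6 CPM in HG+CD200Fc, 390.7, 386.5 and 394.6 CPM in HG, 376.0, 366.1 and 388.1 CPM in NG+CD200Fc, and 384.4, 369 and 381.5 CPM in NG. Its group means spanned 0.07 on the log2 scale. The HG libraries lay above the NG libraries, but the change of 0.05 had a 95% interval from -0.06 to 0.15 (edgeR, adjusted p = 0.565), and the adjusted p was 0.437 or more in the other 5 contrasts. Under the transcript annotation *Adam17* shares 311 exonic bases with *Iah1* on the opposite strand, *Adam8* 46 with *Gm16201*, *Timp3* 1733 with *Syn3*, and *Mmp12* 157 with *Mmp1b*, which had 2 reads in all. The sources do not state whether counting used strand.

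**Figure D3:**
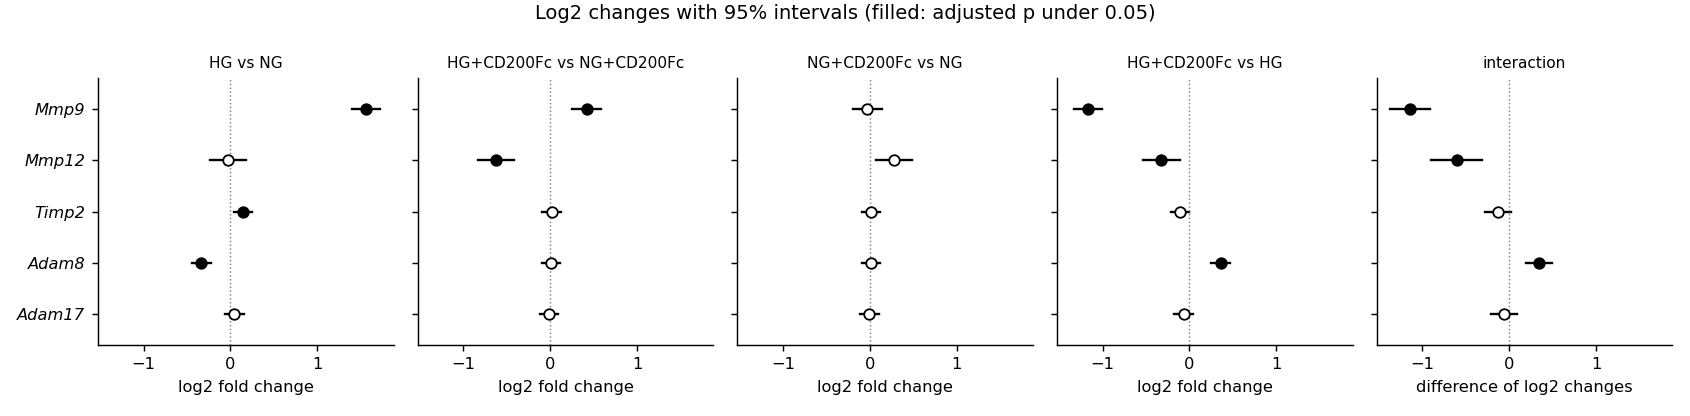
Log2 fold change of the 5 well detected genes in 4 contrasts and the interaction, with 95% intervals and filled points at an adjusted p under 0.05 (edgeR). *Mmp9* and *Adam8* lie on opposite sides of 0 in HG vs NG, HG+CD200Fc vs HG and the interaction, and every point is open in NG+CD200Fc vs NG.

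Counted over the 6 members tested, 3 passed in HG vs NG (*Mmp9* and *Timp2* higher, *Adam8* lower), where 24.6% of all 19182 genes tested passed, and the members' median log2 change was 0.10, beside 0.02 over all genes. Of all genes 11.7% passed higher and 12.9% lower in that contrast. For HG+CD200Fc vs HG 3 members passed (*Adam8* higher, *Mmp9* and *Mmp12* lower), where 17.8% of all genes passed, 9.46% higher and 8.3% lower, and the medians were -0.22 and -0.02. Between HG+CD200Fc and NG+CD200Fc 2 passed (*Mmp9* higher, *Mmp12* lower), where 8.3% of all genes passed, 4.65% higher and 3.65% lower, and between HG+CD200Fc and NG *Mmp9* was higher and *Mmp12* lower, where 20.3% of all genes passed, 9.56% higher and 10.8% lower. The interaction was called in 3 (*Adam8* positive, *Mmp9* and *Mmp12* negative), where 7.2% of all genes passed, 3.62% positive and 3.58% negative, and the medians were -0.37 and -0.01. In NG+CD200Fc vs NG no member and no gene passed in edgeR, while 1 member (*Mmp12*) and 1147 genes had an unadjusted p under 0.05. For that contrast DESeq2 called 0 genes and limma voom called 1, and no member passed in either.

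As a ratio of RPKM within a library, *Mmp9* to *Timp2* was 0.112 ± 0.00682 in HG+CD200Fc, 0.231 ± 0.0111 in HG, 0.0840 ± 0.00130 in NG+CD200Fc and 0.0867 ± 0.00791 in NG (SD, n = 3 each). The HG ratios, 0.224 to 0.244, lay above those of all other libraries. *Mmp9* to *Mmp12* was 4.10 ± 0.326, 7.36 ± 0.980, 1.98 ± 0.159 and 2.44 ± 0.258 in the same order of groups, so gelatinase mRNA exceeded elastase mRNA per merged exon length in all of them. That order depends on the annotated lengths, 3539 bases for *Mmp9* and 7237 for *Mmp12*. In CPM, NG+CD200Fc averaged 19.8 for *Mmp9* and 20.6 for *Mmp12*, and NG averaged 20.2 and 17.0. Which transcripts of each gene were expressed was not tested. *Adam8* to *Adam17* was 2.03 ± 0.195 in HG+CD200Fc, 1.50 ± 0.0436 in HG, 1.99 ± 0.156 in NG+CD200Fc and 1.96 ± 0.0421 in NG. These are mRNA ratios and carry no measurement of protein or activity.

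The genes whose 4 group means were most like those of a member were named for *Mmp9* and *Mmp12*, the members whose group means spanned at least 0.5 on the log2 scale. Likeness was the root mean square difference of centred log2 group means over the 4 groups. It was taken over 9541 protein-coding genes with a mean of at least 5 CPM over the 12 libraries. A gene can reach that mean through the group where it is high. For *Mmp9* the nearest were *Asb2* (0.0842), a substrate adaptor of a ubiquitin ligase, *Coq8a* (0.0884), of coenzyme Q synthesis, *Nos2* (0.0936), the inducible nitric oxide synthase, and *Slfn4* (0.101), an interferon-inducible Schlafen gene. *Asb2* averaged 4.14 CPM in HG+CD200Fc, 10.8 CPM in HG, 3.39 CPM in NG+CD200Fc and 3.56 CPM in NG, so it reached the cut-off through HG. *Nos2* averaged 101.1 CPM in HG+CD200Fc, 206.4 CPM in HG, 63.6 CPM in NG+CD200Fc and 68.3 CPM in NG. *Slfn4* averaged 93.0, 209.9, 81.3 and 81.2 CPM in that order. For *Mmp12* the nearest were *Hectd2* (0.0427), *Cyp4f16* (0.0432), *Nipsnap3b* (0.0594) and *Zfp597* (0.0612). *Cyp4f16* averaged 8.55 CPM in HG+CD200Fc, 10.8 CPM in HG, 12.4 CPM in NG+CD200Fc and 10.5 CPM in NG.

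**Figure D4:**
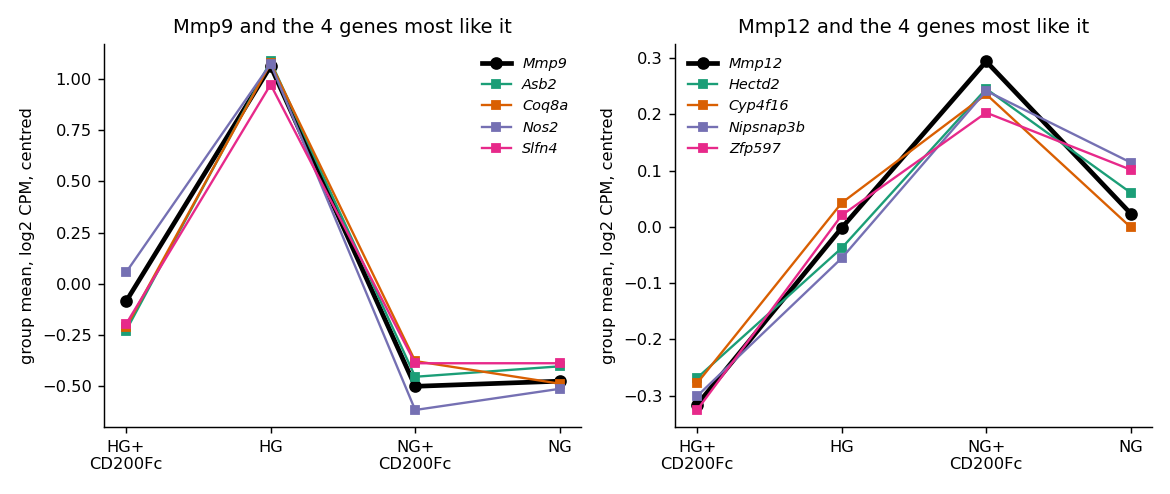
Group means of log2 CPM, centred on each gene's mean over the 4 groups, for *Mmp9* (left) and *Mmp12* (right) in black and the 4 genes nearest to each in colour. The *Mmp9* set peaks in HG with HG+CD200Fc between HG and the normal glucose groups, and the *Mmp12* set is lowest in HG+CD200Fc and highest in NG+CD200Fc.

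The counts of other genes of the pathway that passed stand beside the share of all genes that passed, 24.6% in HG vs NG and 17.8% in HG+CD200Fc vs HG. Of 19 other matrix metalloproteinase genes 8 were tested, and in HG vs NG 1 passed, *Mmp23* at 1.11 ± 0.414 on the log2 scale (edgeR, adjusted p of 0.05 as rounded and just under the threshold), and the list median was 0.02, equal to that of all genes at this precision. *Mmp23* averaged 1.13 CPM in HG+CD200Fc, 1.68 CPM in HG, 0.642 CPM in NG+CD200Fc and 0.774 CPM in NG, and its call was lost in 10 of 20 alternatives. *Mmp19* was well detected, at 21.1 CPM in HG+CD200Fc, 23.2 CPM in HG, 21.2 CPM in NG+CD200Fc and 20.8 CPM in NG. Its mean was 6.1 RPKM, and its change of 0.16 ± 0.0971 in HG vs NG did not pass (edgeR, adjusted p = 0.26). In HG+CD200Fc vs HG 0 of the 8 passed with edgeR, DESeq2 or limma voom, and 0 had an unadjusted p under 0.05. Of 8 other inhibitors only cystatin C (*Cst3*), an inhibitor of cysteine cathepsins, was tested, and it fell by 0.31 ± 0.0790 in HG against NG (edgeR, adjusted p = 0.00664). Among 14 further ADAMs, iRhoms and tetraspanin partners 9 were tested with a median of -0.04, and 1 rose in HG vs NG (2 without HG replicate 2), the membrane protease *Adam33* (1.53 ± 0.175, edgeR, adjusted p = 3.36e-07). *Adam33* was lower in HG+CD200Fc than in HG with a log2 fold change of -0.97 ± 0.169 (edgeR, adjusted p = 0.000137), while the iRhom *Rhbdf1*, a relative of the ADAM17 maturation factor iRhom2, was higher (0.41 ± 0.0864, adjusted p = 0.00109). Of 9 secreted ADAMTS genes 5 were tested with a median of 0.27, and 1 was higher in HG vs NG, *Adamts10* (0.35 ± 0.0989, edgeR, adjusted p = 0.0101), a call lost without NG replicate 1.

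The genes that activate metalloproteinases, the plasminogen system, proprotein convertases and cathepsins, moved in both directions. In HG vs NG 3 of 13 tested were higher and 4 lower, with a list median of -0.07 beside 0.02 over all genes, of which 11.7% passed higher and 12.9% lower, and 4 passed without HG replicate 3 and 3 without NG replicate 1. The urokinase receptor *Plaur*, which holds the plasminogen activator at the surface, averaged 45.9 ± 4.13 CPM in HG+CD200Fc, 33.1 ± 2.73 CPM in HG, 58.2 ± 2.59 CPM in NG+CD200Fc and 59.1 ± 6.78 CPM in NG. It was lower in HG than in NG with a log2 fold change of -0.83 ± 0.0824 (edgeR, adjusted p = 2.76e-08). Urokinase itself, *Plau*, was lower in HG with a log2 fold change of -0.69 ± 0.140 (edgeR, adjusted p = 0.000661), and the plasminogen receptor *Plgrkt* was higher by 0.52 ± 0.0931 (edgeR, adjusted p = 0.000141). Plasminogen (*Plg*), with 5 reads in the 12 libraries, and tissue plasminogen activator (*Plat*), with 23, were not tested.

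Between HG+CD200Fc and HG 2 of these 13 genes were higher and 6 lower, with a median of -0.14 beside -0.02 over all genes, of which 9.46% passed higher and 8.3% lower. The lower ones included the elastin- and collagen-degrading *Ctsk* (-0.51 ± 0.0584, edgeR, adjusted p = 3.69e-07), *Plgrkt* (-0.73 ± 0.0944, adjusted p = 2.59e-06), *Anxa2* (-0.39 ± 0.0582, adjusted p = 1.82e-05) and *Ctss* (-0.37 ± 0.0610, adjusted p = 7.01e-05). *Ctsk* averaged 2552 ± 124 CPM in HG+CD200Fc, 3641 ± 276 CPM in HG, 3047 ± 248 CPM in NG+CD200Fc and 3257 ± 58.4 CPM in NG. Over the same contrast 9 of 18 microglia and macrophage markers were also lower and 1 higher, and their part in these list counts was not tested.

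Partners that bind metalloproteinases at the surface or in the matrix gave 3 higher and 3 lower of 10 tested in HG vs NG, where 11.7% of all genes passed higher and 12.9% lower, and the medians were 0.08 in the list and 0.02 over all genes. Lipocalin 2 (*Lcn2*), whose human protein forms a complex with MMP9, averaged 13.6 ± 1.26 CPM in HG+CD200Fc, 33.5 ± 3.77 CPM in HG, 13.2 ± 1.61 CPM in NG+CD200Fc and 14.6 ± 1.60 CPM in NG. It was higher in HG than in NG by 1.20 ± 0.110 (edgeR, adjusted p = 7.18e-09) and lower in HG+CD200Fc than in HG with a log2 fold change of -1.30 ± 0.111 (edgeR, adjusted p = 2.55e-09). The integrin subunit *Itgav* went the other way, lower in HG than in NG with a log2 fold change of -0.44 ± 0.0588 (edgeR, adjusted p = 3.61e-06) and higher in HG+CD200Fc than in HG by 0.45 ± 0.0589 (edgeR, adjusted p = 2.91e-06). *Cd44*, a surface docking receptor for MMP9, was lower in HG than in NG with a log2 fold change of -0.21 ± 0.0532 (edgeR, adjusted p = 0.00526). For HG+CD200Fc vs HG 2 of the 10 were higher and 3 lower, where 17.8% of all genes passed, with a median of -0.10 beside -0.02 over all genes, and the 5 calls became 3 without HG+CD200Fc replicate 2, HG+CD200Fc replicate 3 or HG replicate 3, and 2 without HG replicate 1.

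Substrates of ADAM17 and ADAM8 gave 4 higher and 2 lower of 13 tested in HG vs NG, and 2 higher and 3 lower in HG+CD200Fc vs HG, where 24.6% and 17.8% of all genes passed. The list medians were 0.06 and 0.03, beside 0.02 and -0.02 over all genes. The TNF receptor *Tnfrsf1b*, shed by ADAM17, averaged 184.7 ± 3.06 CPM in HG+CD200Fc, 267.7 ± 10.9 CPM in HG, 178.5 ± 1.62 CPM in NG+CD200Fc and 166.8 ± 4.03 CPM in NG. It was higher in HG than in NG by 0.68 ± 0.0508 (edgeR, adjusted p = 1.54e-10) and lower in HG+CD200Fc than in HG with a log2 fold change of -0.54 ± 0.0507 (edgeR, adjusted p = 1.82e-08). *Selplg*, the P-selectin ligand that ADAM8 can cleave, and the engulfment receptor *Mertk* had the same 2 directions, at 0.35 ± 0.0600 and 0.50 ± 0.0898 in HG vs NG (edgeR, adjusted p = 7.64e-05 and 0.00016) and -0.49 ± 0.0602 and -0.41 ± 0.0898 in HG+CD200Fc vs HG (9.48e-07 and 0.00143). The 2 that were higher in HG+CD200Fc than in HG were *Il6ra* (0.42 ± 0.0689, edgeR, adjusted p = 6.85e-05) and *Cx3cl1* (0.52 ± 0.121, 0.00289). The lipid receptor *Trem2* was lower in HG than in NG with a log2 fold change of -0.45 ± 0.0635 (edgeR, adjusted p = 6.6e-06). *Tnf* itself averaged 136.4 ± 2.90 CPM in HG+CD200Fc, 136.7 ± 10.8 CPM in HG, 144.8 ± 2.99 CPM in NG+CD200Fc and 152.7 ± 12.5 CPM in NG.

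Among matrix proteins that metalloproteinases degrade, 12 of 20 were tested, with 3 higher and 1 lower in HG vs NG and 2 higher and 2 lower in HG+CD200Fc vs HG, where 24.6% and 17.8% of all genes passed. The list medians were 0.20 and -0.06, beside 0.02 and -0.02 over all genes. The laminin chain *Lama5* averaged 23.9 ± 3.05 CPM in HG+CD200Fc, 34.8 ± 1.89 CPM in HG, 18.0 ± 2.34 CPM in NG+CD200Fc and 15.7 ± 2.40 CPM in NG. It was higher in HG than in NG by 1.15 ± 0.113 (edgeR, adjusted p = 2.95e-08) and lower in HG+CD200Fc than in HG with a log2 fold change of -0.54 ± 0.110 (edgeR, adjusted p = 0.000747). *Col4a2*, a basement membrane collagen, was higher in HG than in NG by 0.83 ± 0.130 (edgeR, adjusted p = 2.83e-05) and lower in HG+CD200Fc than in HG with a log2 fold change of -0.55 ± 0.129 (edgeR, adjusted p = 0.00283). The 2 that were higher in HG+CD200Fc than in HG were *Dag1* (0.29 ± 0.0616, edgeR, adjusted p = 0.00133) and the laminin chain *Lamc1* (0.23 ± 0.0568, 0.00468). *Lamc1* averaged 296.4 CPM in HG+CD200Fc and 252.8 CPM in HG. Of the endothelial markers 6 were tested, with 3 higher and 1 lower in HG vs NG (median 0.53) and 1 higher and 2 lower in HG+CD200Fc vs HG (median -0.30). *Vwf* was at 0.74 and -0.50 and *Tie1* at 0.49 and -0.29, the directions of *Lama5* and *Col4a2*, while *Flt1* was at -0.56 and 0.89, and *Pecam1* was at 0.57 and, without passing, -0.52 (edgeR, adjusted p = 0.0918). Their part in the matrix results was not tested. Osteopontin (*Spp1*) was lower in HG than in NG with a log2 fold change of -0.29 ± 0.0651 (edgeR, adjusted p = 0.00177).

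Transcription factors known to act on metalloproteinase promoters were 24 tested of 25, with 4 higher and 3 lower in HG vs NG and 9 higher and 2 lower in HG+CD200Fc vs HG. Of all genes 11.7% passed higher and 12.9% lower in the first contrast, so the count there was near that share, and 9.46% higher and 8.3% lower in the second. The medians were 0.04 and 0.11, beside 0.02 and -0.02 over all genes, and the 11 calls became 6 without HG+CD200Fc replicate 2 and 7 without HG+CD200Fc replicate 3 or HG replicate 2. *Etv4*, an Ets factor, averaged 9.01 ± 0.662 CPM in HG+CD200Fc, 4.12 ± 0.590 CPM in HG, 10.9 ± 0.569 CPM in NG+CD200Fc and 11.3 ± 0.896 CPM in NG. It was lower in HG than in NG with a log2 fold change of -1.46 ± 0.137 (edgeR, adjusted p = 1.15e-08) and higher in HG+CD200Fc than in HG by 1.13 ± 0.140 (edgeR, adjusted p = 1.2e-06). The AP-1 family member *Atf3* was lower in HG+CD200Fc than in HG with a log2 fold change of -0.36 ± 0.0537 (edgeR, adjusted p = 1.43e-05), and *Runx1* was higher by 0.45 ± 0.0701 (edgeR, adjusted p = 2.96e-05). The other AP-1 genes that passed there were higher: *Fos* (0.57 ± 0.152, edgeR, adjusted p = 0.0113), *Fosl2* (0.24 ± 0.0594, 0.00418) and *Jun* (0.18 ± 0.0604, 0.0419). In HG vs NG *Atf3* was higher (0.25 ± 0.0535, edgeR, adjusted p = 0.00113) and *Fos* lower (-0.55 ± 0.151, 0.0105).

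**Figure D5:**
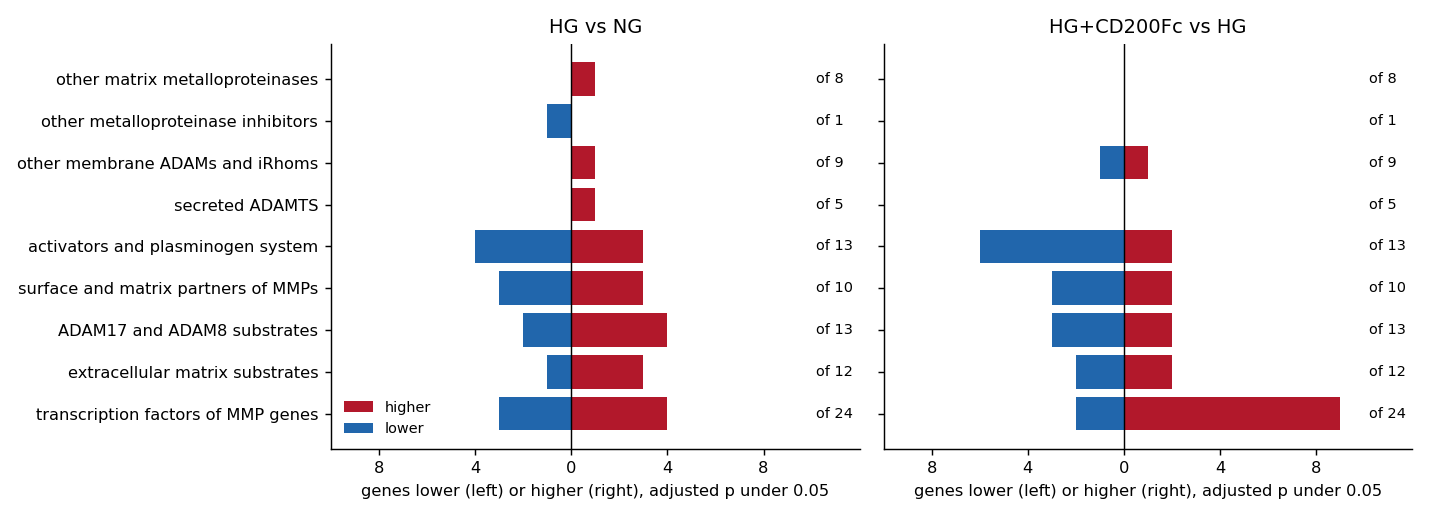
Number of genes passing at an adjusted p under 0.05 (edgeR) in each list, lower to the left and higher to the right, in HG vs NG (left panel) and HG+CD200Fc vs HG (right panel), with the number tested at the right of each row. The activator list has 3 higher and 4 lower in the left panel and 2 higher and 6 lower in the right panel, and the transcription factor list has 9 higher and 2 lower in the right panel.

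In the other contrasts the activator list gave 1 higher and 7 lower of 13 in HG+CD200Fc vs NG+CD200Fc, where 4.65% of all genes passed higher and 3.65% lower, with a median of -0.20 beside -0.000555 over all genes, and 2 higher and 7 lower in HG+CD200Fc vs NG, where 9.56% passed higher and 10.8% lower. The 8 calls of the first of these contrasts became 1 without HG+CD200Fc replicate 2 and 3 without HG+CD200Fc replicate 3 or NG+CD200Fc replicate 3. *Furin*, the convertase that cuts the propeptides of membrane-type metalloproteinases and ADAMs, averaged 339.0 ± 24.0 CPM in HG+CD200Fc, 265.9 ± 4.47 CPM in HG, 270.8 ± 31.96 CPM in NG+CD200Fc and 245.2 ± 7.91 CPM in NG. It was higher in HG+CD200Fc than in NG+CD200Fc by 0.32 ± 0.0660 (edgeR, adjusted p = 0.00462) and higher than in NG by 0.47 ± 0.0662 (edgeR, adjusted p = 5.07e-05). The first of these calls was lost without HG+CD200Fc replicate 2. The iRhom *Rhbdf2*, which escorts ADAM17 to the surface, was higher in HG+CD200Fc than in NG by 0.26 ± 0.0606 (edgeR, adjusted p = 0.00321). *Nfkb1*, an NF-kB subunit, was higher in the same comparison by 0.37 ± 0.0570 (edgeR, adjusted p = 8.62e-05). The transcription factor list gave 9 higher and 0 lower of 24 in HG+CD200Fc vs NG, with a median of 0.09 beside 0.00344 over all genes, and between 4 and 5 passed without HG+CD200Fc replicate 2, HG+CD200Fc replicate 3 or any 1 of the NG libraries.

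None of the 9 lists had a gene that passed in NG+CD200Fc vs NG with edgeR, DESeq2 or limma voom, and with no filter on low counts 1 did, in the list of other inhibitors. At an unadjusted p under 0.05 they held between 0 and 3 genes each, the 3 among the partners of metalloproteinases.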

How the data were processed

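Per the labels' protocols, ribosomal RNA was removed by RNase H, libraries were primed with random hexamers, and paired reads of 150 bases were sequenced. Build GRCm38 and the tools STAR, Salmon, featureCounts of Subread, bcl2fastq, limma and edgeR are listed in the submitters' processing notes; annotation release and strand use are not stated in the sources. The table the authors deposited holds raw counts per gene for the 12 libraries. Their other deposited table holds log2 fold changes and p-values from the authors' own comparisons, used only where named.

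Of 55774 lines, 287 repeats were dropped, and 99.4% of the 55487 gene IDs were found in GENCODE M21 (GRCm38), which gave coordinates, coding sequences and exon lengths. Genes passing filterByExpr over the 4 groups numbered 19182. Libraries were scaled by TMM, 1 quasi-likelihood model of 4 group means was fitted with edgeR 4.0.16 (robust, R 4.3.3, biological coefficient of variation 0.0908), and 6 contrasts, interaction included, were adjusted by Benjamini-Hochberg with a threshold of 0.05. Totals of 2.15e+07 to 3.19e+07 counts describe counting error only, since reads carry no molecular identifiers.

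The 9 members and the 14 lists (206 names, all matched) were chosen with earlier results of these data known. Up to 4 genes per list and contrast, those with the smallest p among genes that passed, may be named. Beyond that rule, *Tnf*, *Plg*, *Plat*, *Mmp19*, *Cx3cl1*, *Fos*, *Fosl2*, *Jun*, *Atf3* in HG vs NG and single markers were named after their values were seen. Some list genes that passed are counted but not reported here by name. The 20 alternatives were DESeq2 size factors, upper quartile scaling, no filter, a stricter filter, DESeq2 1.42.0, limma 3.58.1 voom, a replicate block, only the groups compared, and leaving out each of the 12 libraries. No pair of replicates agreed within sampling noise (lowest chi-square per degree of freedom 3.79), so each library was counted. HG replicate 2 stood apart, at 41.14 with HG replicate 1 and 28.71 with HG replicate 3. The value was 10.06 for HG replicates 1 and 3 and at most 14.71 within the other groups.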

Additional observations from a re-analysis of the deposited data

Results flagged for a closer look

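*Mmp9*, *Mmp12* and *Adam8* are listed because the effect of CD200Fc differed between high and normal glucose by a test of the difference itself, the interaction of the edgeR fit. The log2 difference was -1.14 for *Mmp9*, -0.60 for *Mmp12* and 0.35 for *Adam8*, with values in each group given above.

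Named list genes met the same criterion. The difference was negative for *Adam33* (-1.32), *Plgrkt* (-0.63), *Anxa2* (-0.32), *Ctsk* (-0.42), *Lcn2* (-1.16), *Itgb3* (-2.51), *Tnfrsf1b* (-0.63), *Selplg* (-0.42), *Lama5* (-0.74), *Col4a2* (-0.72) and *Atf3* (-0.35). It was positive for *Plaur* (0.49), *Itgav* (0.41), *Il6ra* (0.32), *Trem2* (0.32), *Etv4* (1.18) and *Runx1* (0.45). The *Il6ra* call was lost in 12 of 19 alternatives, that of *Trem2* in 6 and that of *Anxa2* in 3. *Itgb3* is low, between 0.163 and 1.64 CPM per library.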

How the results depend on the processing

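No value that passed, as reported or under an alternative, changed sign. *Mmp9* and *Adam8* kept their calls in all alternatives run for HG vs NG, HG+CD200Fc vs HG and the interaction, with log2 changes of *Mmp9* from 1.50 to 1.61, -1.22 to -1.12 and -1.19 to -1.09. *Timp2* in HG+CD200Fc vs HG passed with limma voom (-0.14, adjusted p = 0.0191). Correlations of deviations ran from -0.08 to 0.21 for 18 same-numbered pairs and from -0.23 to 0.28 for 36 others. Among same-numbered pairs, those of replicate 2 ran from 0.00658 to 0.196 and those of replicate 3 from -0.0684 to 0.0293. Of the 12 libraries 7 correlated best with their own number. Whether the replicate numbers mark shared batches was not tested. With the replicate block the members passing numbered 3 in HG vs NG and 3 in HG+CD200Fc vs HG. In HG vs NG more of all genes passed with the block than the 4720 as reported. Over the 20 alternatives, 3326 to 5865 of all genes passed in HG vs NG and 2473 to 3893 in HG+CD200Fc vs HG. With the block 2 genes of all passed in NG+CD200Fc vs NG. In that contrast 21 genes passed with no filter, 1 with limma voom and 9 with only the groups compared; the cause was not tested. In HG+CD200Fc vs NG+CD200Fc 2597 genes passed with limma voom, against 1593 as reported. Leaving out single libraries gave 277 (without HG+CD200Fc replicate 2) to 2288 genes in HG+CD200Fc vs NG+CD200Fc, 0 to 8 (without HG replicate 1) in NG+CD200Fc vs NG, and 2217 (without NG replicate 1) to 4217 in HG+CD200Fc vs NG, where 1 or 2 members passed. Members at a few reads per library are limited by depth.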
